A study of Mus musculus with 10 samples.

Results

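The genes described here encode the proteins of the cytosolic ribosome. They were taken as every protein-coding gene of the GENCODE M21 annotation whose symbol follows the *Rps* or *Rpl* naming of ribosomal proteins (*Rps* or *Rpl* with a number and at most one of the letters a, x, y or l, *Rplp0* to *Rplp2*, and *Rpsa*). The rule took 80 of the 53447 genes listed, of which 31 belong to the small and 49 to the large subunit. Ribosomal proteins named otherwise (such as *Fau*, *Rps3a1* and *Rack1*) fall outside the rule and are given separately.

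RNA was sequenced from the cerebella of 5 *Dscam* del17/del17 mice and 5 WT mice at P21, with 1 library per mouse. All are labelled BALB/c, and the *Dscam* del17 line had been crossed with BALB/cCrSlc mice. The mutants, labelled knockout, are homozygous for a spontaneous loss-of-function deletion in exon 17 of *Dscam*, a cell adhesion gene, and are constitutive mutants, so every cell type carries the allele. Littermates served as controls and both sexes were used, while the labels give no sex. Whole cerebellum was used, in which granule cells are by far the most numerous cells, so a lower value may mean fewer cells of a type or less RNA per cell, and these cannot be told apart.

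The ribosome reads messenger RNA and joins amino acids into protein. Its small subunit holds the decoding site, and its large subunit holds the site where the peptide bond is formed. In mammals each ribosomal protein is made in step with the others, and most of their mRNAs begin with a C followed by an unbroken run of pyrimidines, the 5′ terminal oligopyrimidine (TOP) tract, through which the mTORC1 kinase and the RNA-binding protein LARP1 control their translation. In neurons, ribosomal proteins are also made and used in dendrites and axons. Loss of one copy of several of these genes causes Diamond-Blackfan anaemia in humans.

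The pyrimidine tract was looked for at the annotated transcript start of the 60 members with an entry in the RefSeq promoter table (GRCm38.p6), 20 members having none. A run of at least 6 C or T bases that began with C and lay across the start was found in 16 of these 60 members (26.7%) and in 1252 of all 27025 genes of that table (4.63%). The 8 sequences below show the form the tract takes, in members named in the results and in *Rpl27a* with the longest tract. Each runs from 10 bases before the start to 20 bases from it, on the transcribed strand, with the tract in capitals.
Rps6: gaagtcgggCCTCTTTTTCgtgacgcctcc
Rps10: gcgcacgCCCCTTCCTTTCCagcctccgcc
Rps27: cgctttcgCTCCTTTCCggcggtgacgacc
Rps18: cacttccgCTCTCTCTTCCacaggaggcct
Rpl35a: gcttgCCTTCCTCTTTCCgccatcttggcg
Rpl38: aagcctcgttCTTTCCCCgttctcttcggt
Rplp2: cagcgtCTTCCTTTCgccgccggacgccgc
Rpl27a: cgtgagCTCCTCCCTTTTCCCTTTCTgcca
These lie at chr4:86857348-86857377, chr17:27635225-27635254, chr3:90213629-90213658, chr17:33955646-33955675, chr16:33056472-33056501, chr11:114668570-114668599, chr7:141447641-141447670 and chr7:109519185-109519214. A start annotated a few bases away from the one used in cerebellum moves the tract out of the window searched, so a missing match says only that these letters do not stand there.

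The values were TPM, a transcript abundance unit, which are scaled to transcript length and to the library. The listed TPM summed to 775148 to 805869 in the *Dscam* del17/del17 and to 684771 to 838532 in the WT libraries. The number of reads behind a TPM value is not kept, so the depth could not be given. *Dscam* itself was at 5.11, 5.42, 4.53, 3.73 and 3.05 TPM in *Dscam* del17/del17 libraries 1 to 5, against 8.04, 8.43, 6.79, 9.05 and 6.29 TPM in WT libraries 1 to 5. The groups did not overlap (log2 fold change -0.82, limma adjusted p = 0.779, exact permutation p = 0.0079, n = 5 each), although the allele removes only part of one exon. WT library 5 stood apart, with 15623 genes at a TPM of 0.5 or more, against 17101 to 17763 in the other 9 libraries. Genotypes were compared with limma on log2(TPM + 0.1) over 17168 genes, those that reached 0.5 TPM in 5 or more of the 10 libraries, and log2 fold changes are *Dscam* del17/del17 minus WT.

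The members were among the most abundant mRNAs of the cerebellum. Of the 80, 77 passed the filter on low values, and 67 of these averaged at least 100 TPM over the 10 libraries. Their median mean level was 253 TPM, against 15.5 TPM for the 13385 other nuclear protein-coding genes tested. Their transcripts were short, with a median length of 728 nucleotides against 2283 nucleotides for those other genes. Their median GC content was 51.9%, against 51.4%. The genes lay on 19 chromosomes, with 14 of the 80 on chromosome 7 and 4 on the X chromosome (*Rpl10*, *Rpl36a*, *Rpl39*, *Rps4x*). *Rpl24*, *Rpl35a* and *Rpl39l* share chromosome 16 with *Dscam*.

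The members with the highest mean level included *Rps15*, *Rpl41*, *Rplp1*, *Rpl38*, *Rps29*, *Rpl19* and *Rpl36*. *Rps15*, a protein of the head of the small subunit, averaged 952 ± 90.04 TPM in *Dscam* del17/del17 and 1169 ± 227 TPM in WT (SD, n = 5 each). *Rpl41*, which encodes the smallest ribosomal protein, averaged 1025 ± 128 TPM in *Dscam* del17/del17 and 1087 ± 342 TPM in WT. The ranges of these highest members overlapped, 888 to 1108 TPM for *Rps15* and 920.0 to 1232 TPM for *Rpl41* in *Dscam* del17/del17, so their order is not resolved by these libraries. *Rplp1* followed with 759 ± 101 TPM in *Dscam* del17/del17 and 904 ± 239.6 TPM in WT, and *Rpl38* with 772 ± 62.9 TPM in *Dscam* del17/del17 and 873 ± 126 TPM in WT. At the low end of the genes tested stood *Rpl21* at 4.63 ± 1.55 TPM in *Dscam* del17/del17 and 3.90 ± 1.21 TPM in WT, whose near-identical copies held nearly all of the TPM listed for the gene and its copies (described with the other copies).

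The 3 members left out by the filter are paralogs with restricted expression. *Rpl10l*, used in male germ cells in the mouse, and *Rpl39l*, a germ cell paralog of *Rpl39*, were listed at 0 in all 10 libraries. *Rpl3l*, the striated muscle paralog of *Rpl3*, was listed at 0.293, 0.262, 0.264, 0.341 and 0.313 TPM in *Dscam* del17/del17 libraries 1 to 5 and at 0.554, 0, 0, 0.0943 and 0 TPM in WT libraries 1 to 5. It was thus read at a very low level in 5 of the *Dscam* del17/del17 and 2 of the WT libraries, below the filter in all but 1 library. *Rps27l*, a p53-responsive paralog of *Rps27*, was readily measured at 60.7 ± 12.9 TPM in *Dscam* del17/del17 and 55.1 ± 15.8 TPM in WT.

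The genotype comparison asked whether the ribosomal protein mRNAs differ in the mutant cerebellum. No member passed the adjusted threshold of 0.05 in limma, where 0% of all genes were called, and the smallest adjusted p of a member was 0.779. The members leaned to one side, in that 54 of the 77 had a log2 fold change below 0, that is 70.1%, against 44.0% of all genes tested. Their median log2 fold change was -0.09, against 0.05 for all genes. The small subunit gave a median of -0.09 with 21 of 31 below 0, and the large subunit gave -0.14 with 33 of 46 below 0. Of the 77, 72 lay within 0.5 of 0 on the log2 scale, and the 5 outside (*Rpl18*, *Rpl29*, *Rps18*, *Rps2*, *Rpl35a*) all lay below 0. With near-identical copies added, only *Rpl18* of these stayed outside, at -0.98. *Rpl29* was then at -0.17, *Rps18* at -0.14, *Rps2* at -0.01 and *Rpl35a*, at -0.57 alone, at 0.05.

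At an unadjusted p under 0.05, 6 members were lower and 0 higher, beside 3.26% of all genes lower and 2.29% higher. The 6 make 7.79% of the 77 members tested. This count moved with single libraries. Without WT library 2, 22 members and 4.79% of all genes were lower, and without WT library 5, 11 members and 4.05% of all genes. Without WT library 3 or WT library 4, 4 members were lower, beside 2.84% and 2.09% of all genes. Leaving out any other single library gave 5 to 10 members lower, beside 2.35% to 3.60% of all genes. In the other direction, 1 member was higher without WT library 1, beside 5.99% of all genes. Also 1 was higher without *Dscam* del17/del17 library 1, beside 1.52% of all genes.

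**Figure D1:**
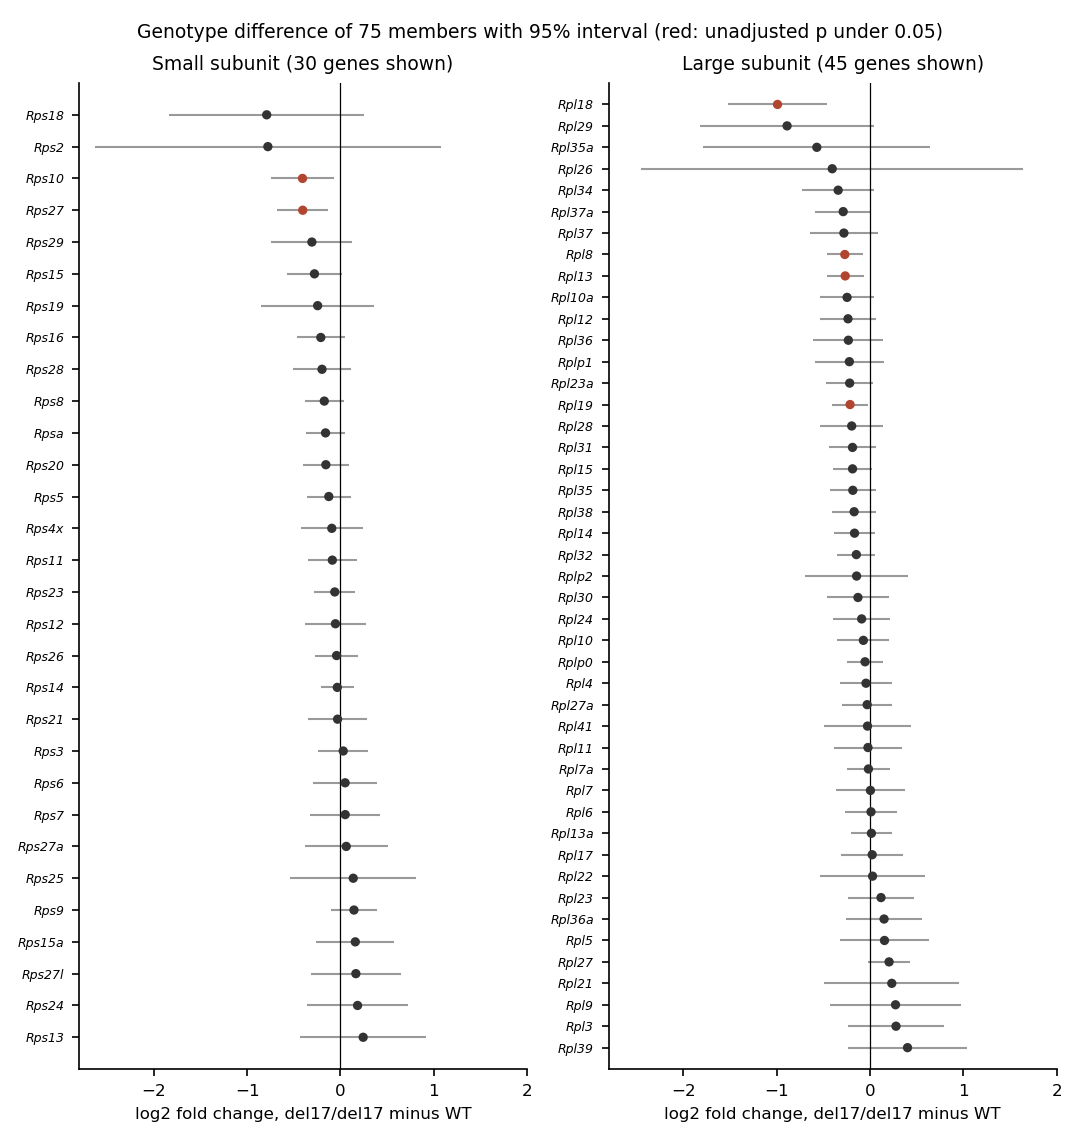
Log2 fold change (x axis, *Dscam* del17/del17 minus WT) of 75 of the 77 members tested, 30 of the small and 45 of the large subunit, with its 95% interval as a line. Points lie left of 0 for 52 of those shown, and the 6 red points, all left of 0, have an unadjusted p under 0.05.

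The sum over all 80 members showed which libraries were high. It was 19435, 20519.9, 20181, 22165 and 22519 TPM in *Dscam* del17/del17 libraries 1 to 5, against 23631, 20482, 25259.9, 24853 and 22587 TPM in WT libraries 1 to 5. WT libraries 1, 3, 4 and 5 lay above every *Dscam* del17/del17 library, WT library 5 only just, while WT library 2 lay among the lowest. The means were 20964 ± 1324 TPM in *Dscam* del17/del17 and 23362 ± 1923 TPM in WT (SD, n = 5 each), a ratio of -0.16 on the log2 scale. As a share of the listed TPM, the members took 2.41% to 2.89% in *Dscam* del17/del17 and 2.57% to 3.34% in WT. The order of the libraries differed by this share. WT library 1 (2.82%) then lay below *Dscam* del17/del17 libraries 4 (2.83%) and 5 (2.89%), and WT library 5 (3.30%) came next to WT library 3 (3.34%), the highest.

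Each subunit followed the sum. The small subunit genes summed to 7349.6, 8025, 7928, 8524 and 8907 TPM in *Dscam* del17/del17 libraries and to 9397, 7881, 9498, 9419 and 8757 TPM in WT libraries. The large subunit genes summed to 12086, 12494, 12253, 13641 and 13613 TPM in *Dscam* del17/del17 libraries and to 14234, 12600.2, 15762, 15434 and 13829.9 TPM in WT libraries. The ratio of small to large subunit TPM was 0.635 ± 0.0187 in *Dscam* del17/del17 and 0.626 ± 0.0224 in WT, a difference within the spread between mice.

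**Figure D2:**
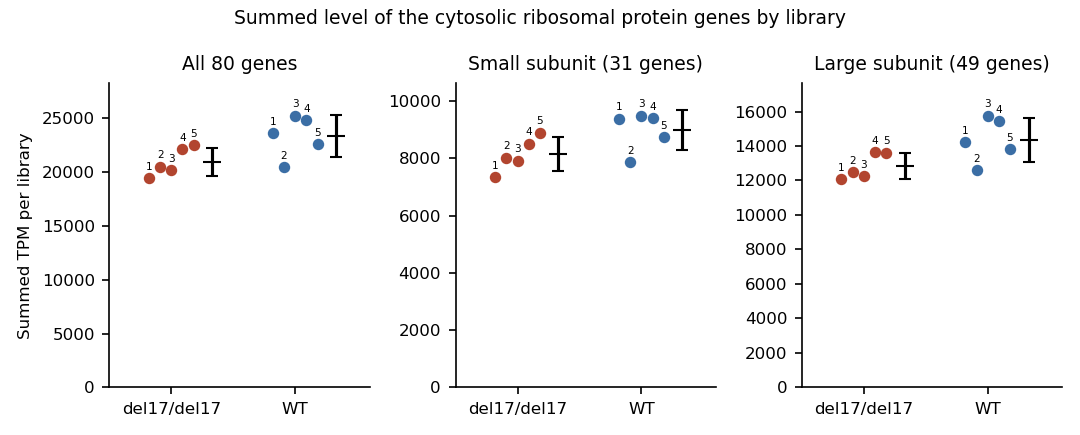
Summed TPM per library (y axis, from 0) of all 80 members, the small subunit genes and the large subunit genes, with *Dscam* del17/del17 on the left and WT on the right; points are mice, numbered by library, and the bar gives the mean and SD of 5. WT libraries 1, 3 and 4 lie highest in the panel of all members and WT library 2 lies within the *Dscam* del17/del17 range.

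The number of members above their own mean level differed between libraries. Between 13 and 45 of the 77 members lay above it in a *Dscam* del17/del17 library, and between 27 and 66 in a WT library. *Dscam* del17/del17 library 1 had the fewest (13) and WT library 4 the most (66).

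*Rpl18*, which encodes a large subunit protein linked to Diamond-Blackfan anaemia in humans, differed most. The gene lies at chr7:45715457-45720836 (GRCm38, plus strand). It was at 315, 119, 252.4, 193 and 330.4 TPM in *Dscam* del17/del17 libraries 1 to 5, against 521, 397, 497, 476 and 384 TPM in WT libraries 1 to 5. Every *Dscam* del17/del17 library lay below every WT library, which held for no other member. Such a separation was found in 0.798% of all genes tested in this direction and in 0.419% in the other. Its log2 fold change of -0.99 had a standard error of 0.24 and a 95% interval of -1.52 to -0.457 (limma adjusted p = 0.779), and the exact permutation p was 0.0079, the smallest that 5 against 5 can give. Over the alternatives of the analysis the log2 fold change ranged from -1.13 to -0.76 and the adjusted p from 0.424 to 0.919. Within *Dscam* del17/del17 the level also varied 2.77-fold, from library 2 to library 5. The 3 near-identical copies of *Rpl18* averaged only 5.86 TPM in all, and *Sphk2*, which overlaps it on the opposite strand, averaged 19.6 ± 2.75 TPM in *Dscam* del17/del17 and 22.9 ± 4.75 TPM in WT.

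*Rps27*, a small subunit protein with a zinc finger, was the member with the next smallest p. It was at 246, 235, 227, 251 and 172 TPM in *Dscam* del17/del17 libraries, against 315, 236, 308, 323 and 310.0 TPM in WT libraries. The groups overlapped through WT library 2 alone, which lay within the *Dscam* del17/del17 range (log2 fold change -0.40, standard error 0.12, limma adjusted p = 0.779, exact permutation p = 0.0238). One copy, *Rps27rt*, has a transcript 100% identical to it over the aligned length. Near-identical copies held 13.5% of the TPM of *Rps27* and its copies, and the log2 fold change was -0.38 with the copies added.

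*Rpl8*, a protein next to the peptidyl transferase centre of the large subunit, has no near-identical copy elsewhere in the annotation by the criterion given with the copies. It was at 425, 486, 464, 466 and 532 TPM in *Dscam* del17/del17 libraries, against 548, 501, 587, 614 and 611 TPM in WT libraries. Only *Dscam* del17/del17 library 5 reached into the WT range (log2 fold change -0.27, standard error 0.09, limma adjusted p = 0.779, exact permutation p = 0.0159).

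*Rpl13*, another large subunit protein, was at 516, 421, 446, 537 and 487 TPM in *Dscam* del17/del17 libraries, against 516, 597, 605, 556 and 613 TPM in WT libraries. *Dscam* del17/del17 libraries 1 and 4 reached the lowest WT value (log2 fold change -0.26, standard error 0.09, limma adjusted p = 0.779, exact permutation p = 0.0238). Near-identical copies held 18.7% of the TPM of *Rpl13* and its copies, and the log2 fold change was -0.34 with the copies added. *Gm20388*, a read-through gene on the same strand, averaged 35.6 ± 3.88 TPM in *Dscam* del17/del17 and 39.4 ± 4.61 TPM in WT.

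*Rps10*, at the mRNA entry side of the small subunit, was at 275, 226, 341, 299.6 and 367 TPM in *Dscam* del17/del17 libraries, against 339.7, 315, 469, 473 and 404 TPM in WT libraries. The ranges overlapped (log2 fold change -0.41, standard error 0.15, limma adjusted p = 0.779, exact permutation p = 0.0556). Near-identical copies held 27.4% of the TPM of *Rps10* and its copies, and the log2 fold change was -0.31 with the copies added.

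*Rpl19*, a large subunit protein that takes part in a bridge to the small subunit, was at 505, 541, 524, 516 and 532 TPM in *Dscam* del17/del17 libraries, against 583, 513, 669, 664 and 619.5 TPM in WT libraries. The *Dscam* del17/del17 libraries were alike, with an SD of 14.3 TPM against 64.4 TPM in WT, and only WT library 2 fell among them (log2 fold change -0.21, standard error 0.09, limma adjusted p = 0.779, exact permutation p = 0.0397). A short annotated miRNA gene inside it, *Gm27597*, was listed at 863 ± 31.6 TPM in *Dscam* del17/del17 and 1001 ± 93.8 TPM in WT, a level that cannot be told apart from reads of *Rpl19* itself.

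**Figure D3:**
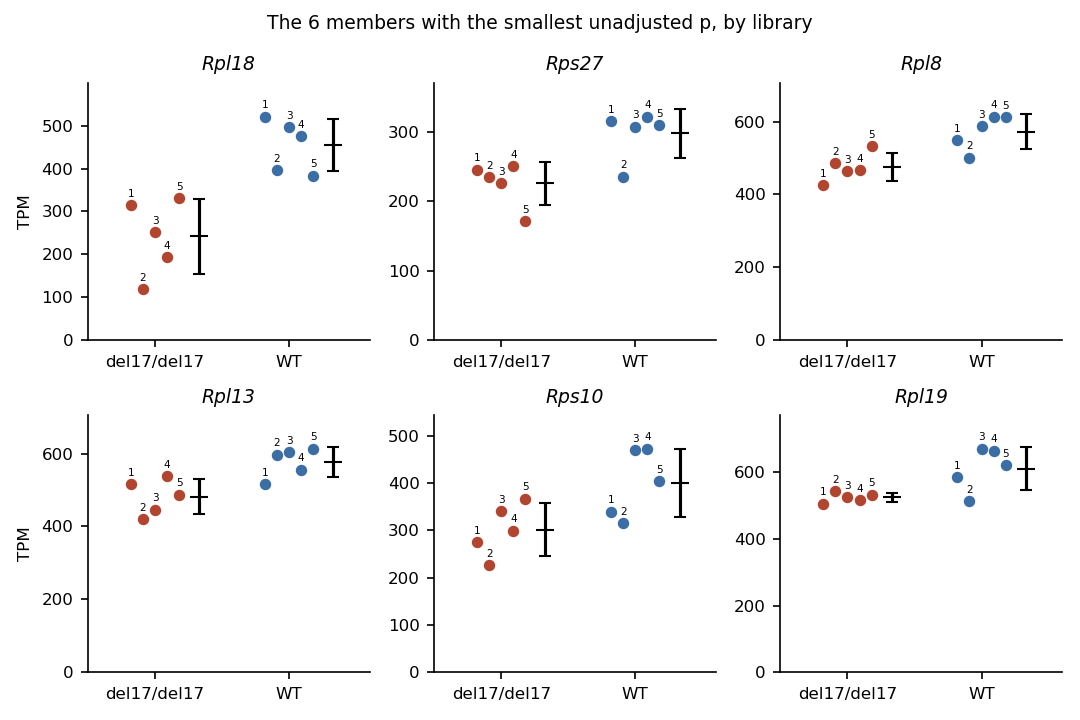
TPM (y axis, from 0) of the 6 members with the smallest unadjusted p in each library, *Dscam* del17/del17 left and WT right; points are mice, numbered by library, and the bar gives the mean and SD of 5. In *Rpl18* all *Dscam* del17/del17 points, 119 to 330.4 TPM, lie below all WT points, 384 to 521 TPM, while in the other 5 genes the ranges overlap.

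The next members by p included *Rpl29* (log2 fold change -0.89), *Rps15* (-0.28) and *Rpl37a* (-0.29), each with a limma adjusted p of 0.779. *Rps15* was at 941, 896, 888, 926 and 1108 TPM in *Dscam* del17/del17 libraries, against 991, 884, 1305, 1231 and 1436 TPM in WT libraries. WT libraries 3, 4 and 5 were its high ones, WT library 1 lay among the *Dscam* del17/del17 values and WT library 2 just below them. *Rpl37a*, a zinc finger protein of the large subunit, was at 276, 218, 286, 300.2 and 342 TPM in *Dscam* del17/del17 libraries, against 319, 271, 389, 351 and 406 TPM in WT libraries. Its ranges overlapped between the genotypes. Of the members above 0, *Rpl27* had the smallest p (chosen after its values were seen), with 292 ± 35.8 TPM in *Dscam* del17/del17 and 253 ± 23.2 TPM in WT (log2 fold change 0.20, limma adjusted p = 0.779).

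The proteins of the ribosomal stalk, which recruits the elongation factors, did not separate by genotype. *Rplp0*, the base of the stalk, was at 169, 197, 205, 185 and 212 TPM in *Dscam* del17/del17 libraries, against 196, 204, 208, 212 and 183 TPM in WT libraries, the narrowest spread of any member tested when copies are not counted (highest over lowest library 1.25). Its near-identical copies held 52.9% of the TPM of the gene and its copies, and with them the ratio was 1.29, wider than that of *Rps14* (1.22), *Rpl14* (1.25) and *Rpl21* (1.26) counted in the same way. *Rplp1* was at 661, 762, 723, 720.2 and 928 TPM in *Dscam* del17/del17 libraries, against 701, 644, 976, 958 and 1239 TPM in WT libraries. *Rplp2* was at 111, 115, 72.2, 88.4 and 126 TPM in *Dscam* del17/del17 libraries, against 75.5, 69.4, 153, 151 and 139 TPM in WT libraries. In WT both *Rplp1* and *Rplp2* were high in libraries 3, 4 and 5 and low in libraries 1 and 2. The log2 fold changes were -0.05, -0.22 and -0.14, with limma adjusted p of 0.887, 0.785 and 0.896.

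*Rps6*, the substrate of the S6 kinases that is widely read as a sign of mTORC1 activity when phosphorylated, was at 205, 195, 214, 251 and 247 TPM in *Dscam* del17/del17 libraries, against 259, 270.4, 194, 223 and 147 TPM in WT libraries. Its log2 fold change was 0.05 (standard error 0.16, limma adjusted p = 0.944), a measure of its mRNA and not of its phosphorylation. *Rps27a*, made as a fusion with ubiquitin, was at 175, 191, 217, 202 and 189.8 TPM in *Dscam* del17/del17 libraries, against 282, 224, 169.8, 189.9 and 109.9 TPM in WT libraries. In both genes the WT libraries spanned the whole *Dscam* del17/del17 range, with WT library 5 lowest.

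*Rpl5* and *Rpl11* join with a small ribosomal RNA and, when free of ribosomes, bind MDM2, the regulator of p53. *Rpl5* was at 134, 124, 142, 131 and 121 TPM in *Dscam* del17/del17 libraries, against 162, 155, 111, 125 and 62.4 TPM in WT libraries (log2 fold change 0.16, standard error 0.22, limma adjusted p = 0.869). *Rpl11* was at 216, 210.1, 277, 258 and 267 TPM in *Dscam* del17/del17 libraries, against 339, 276, 244, 245 and 167 TPM in WT libraries (log2 fold change -0.02, standard error 0.17, limma adjusted p = 0.975). In both genes WT library 1 was highest and WT library 5 lowest.

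Of the other members with a role of their own, *Rpsa*, also known as the laminin receptor, averaged 221 ± 23.9 TPM in *Dscam* del17/del17 and 246 ± 18.01 TPM in WT (log2 fold change -0.16, limma adjusted p = 0.779). *Rps14*, loss of which contributes to a form of human myelodysplasia, averaged 309.9 ± 19.6 TPM in *Dscam* del17/del17 and 317 ± 23.6 TPM in WT, with a log2 fold change of -0.03 and a 95% interval of -0.212 to 0.144 (limma adjusted p = 0.925). *Rpl3*, near the peptidyl transferase centre, averaged 149 ± 46.9 TPM in *Dscam* del17/del17 and 122 ± 32.9 TPM in WT (log2 fold change 0.28, limma adjusted p = 0.791). Near-identical copies held 59.7% of the TPM of *Rpl3* and its copies, and the log2 fold change was 0.06 with the copies added.

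The X-linked members overlapped between the genotypes. *Rps4x* was at 193, 184, 189.6, 193 and 229 TPM in *Dscam* del17/del17 libraries, against 229, 255, 149, 262 and 179.6 TPM in WT libraries. *Rpl10*, mutated in a form of autism and X-linked intellectual disability in humans, was at 169.6, 159, 146, 191 and 162 TPM in *Dscam* del17/del17 libraries, against 215, 196, 141, 178 and 148 TPM in WT libraries. *Rpl39*, which lines the peptide exit tunnel, had the highest log2 fold change of the 77 members (0.40, standard error 0.29, limma adjusted p = 0.782). Its values were 109.6, 144, 127, 157 and 151 TPM in *Dscam* del17/del17 libraries, against 180.0, 139.6, 96.6, 104 and 46.8 TPM in WT libraries. The WT libraries spanned more than the *Dscam* del17/del17 ones, and WT library 5 had the lowest value of all.

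A list of 17 members whose human counterparts are mutated in Diamond-Blackfan anaemia was read in the same way. All 17 were tested, and 14 (82.4%) had a log2 fold change below 0, against 70.1% of all 77 members and 44.0% of all genes. One of the 14, *Rpl35a*, was at -0.57 alone and at 0.05 with its near-identical copies added. The median was -0.19, against -0.09 for all 77 members. At an unadjusted p under 0.05, 3 of the 17 were lower (*Rpl18*, *Rps27* and *Rps10*) and 0 higher, beside 3.26% of all genes lower and 2.29% higher. None of the 17 passed the adjusted threshold. *Rps19*, the gene mutated most often in that disease, was at 76.2, 84.1, 68.8, 160.1 and 71.8 TPM in *Dscam* del17/del17 libraries, against 101, 64.8, 96.2, 105 and 179 TPM in WT libraries (log2 fold change -0.24, standard error 0.28, limma adjusted p = 0.840). *Dscam* del17/del17 library 4 and WT library 5 stood above the rest.

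Some members varied between libraries of one genotype by far more than the genotypes differed. In 10 of the 77 members, the highest library of a genotype was more than 3 times the lowest of that genotype, and over all 10 libraries this held for 11 members, *Rpl18* being the other one. All 11 have near-identical copies elsewhere in the genome, as do most members. Copies were taken as genes whose transcript matched that of a member with at least 95% identity over at least 80% of the shorter one. There were 567 of them, 554 annotated as processed pseudogenes, which arise when an mRNA is copied back into the genome, and 74 of the 80 members had at least 1. In 12 members the copies together held more TPM than the gene. When the TPM of a member and its copies were added, 4 members instead of 11 exceeded 3 times over all 10 libraries (*Rpl18*, *Rps13*, *Rps25* and *Rpl9*).

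*Rpl26* and its copy *Gm15772* on chromosome 5 show how little separates such a pair, with 2 differences in 438 aligned bases (99.5% identity). The 90 bases shown are from the coding part of *Rpl26* on chromosome 11 and the matching part of the copy, with the base that differs in capitals.
Rpl26: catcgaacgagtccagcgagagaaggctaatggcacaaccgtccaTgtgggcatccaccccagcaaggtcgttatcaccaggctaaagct
Gm15772: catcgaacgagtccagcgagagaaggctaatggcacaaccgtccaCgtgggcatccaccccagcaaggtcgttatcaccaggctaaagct
*Rps18*, at the head of the small subunit, and *Gm10260* on chromosome 13, itself annotated as protein-coding, differ at 5 of 545 aligned bases (99.1% identity), of which 2 lie in the 90 bases shown.
Rps18: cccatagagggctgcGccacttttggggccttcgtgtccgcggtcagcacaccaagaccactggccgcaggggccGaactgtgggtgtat
Gm10260: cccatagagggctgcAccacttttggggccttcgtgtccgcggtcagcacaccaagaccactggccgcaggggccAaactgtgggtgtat

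The 4 genes described next were chosen after their values were seen. *Rpl26* was listed at 233, 413, 30.6, 432 and 54.7 TPM in *Dscam* del17/del17 libraries, against 539.8, 211, 353, 317 and 22.3 TPM in WT libraries. *Gm15772* was listed at 340.1, 24.6, 704, 22.1 and 714 TPM in *Dscam* del17/del17 libraries, against 19.9, 353, 419, 426 and 873 TPM in WT libraries. *Rpl26* was lowest in *Dscam* del17/del17 libraries 3 and 5 and WT library 5, where *Gm15772* was highest. It was highest in *Dscam* del17/del17 libraries 2 and 4 and WT library 1, where *Gm15772* was lowest. The remaining libraries did not keep this order, as WT library 3 lay above WT library 2 in both genes. With all copies added, the values were 585, 442, 743, 461 and 775 TPM in *Dscam* del17/del17 libraries, against 570.5, 569, 779, 749.9 and 903 TPM in WT libraries. The log2 fold change was -0.40 (standard error 0.94) for the gene alone and -0.26 (standard error 0.19) with its copies.

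*Rps18* stood at 24.5, 25.2, 30.2, 14.7 and 31.8 TPM in *Dscam* del17/del17 libraries, against 34.7, 178, 26.3, 35.6 and 23.5 TPM in WT libraries. *Gm10260* stood at 289.7, 261, 288, 274 and 302 TPM in *Dscam* del17/del17 libraries, against 303, 140.5, 379, 355 and 357 TPM in WT libraries. WT library 2 was the high one for *Rps18* and the low one for *Gm10260*. Its log2 fold change was -0.79 (standard error 0.48) alone and -0.14 (standard error 0.10) with its copies.

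*Rps2*, another small subunit protein, was listed at 19.6, 29.1, 23.6, 137 and 20.2 TPM in *Dscam* del17/del17 libraries, against 367, 136, 16.8, 38.9 and 17.0 TPM in WT libraries. With its 24 copies it stood at 302, 351, 333, 315 and 349 TPM in *Dscam* del17/del17 libraries, against 390.3, 294, 333, 378 and 274 TPM in WT libraries. The spread over libraries shrank from 21.8-fold to 1.42-fold, and the log2 fold change was -0.78 alone and -0.01 with the copies.

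*Rpl29*, a heparin-binding large subunit protein, was at 26.1, 24.2, 22.0, 18.8 and 28.6 TPM in *Dscam* del17/del17 libraries, against 151, 19.6, 33.3, 35.4 and 46.8 TPM in WT libraries. Its log2 fold change was -0.89, and -0.44 without WT library 1. With its 32 copies it was at 392, 393, 426, 399 and 437 TPM in *Dscam* del17/del17 libraries, against 537, 398, 486, 515 and 385 TPM in WT libraries, and the log2 fold change was -0.17 (standard error 0.11). *Rpl21* with its 57 copies held 316 to 353 TPM in *Dscam* del17/del17 and 329 to 399 TPM in WT.

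**Figure D4:**
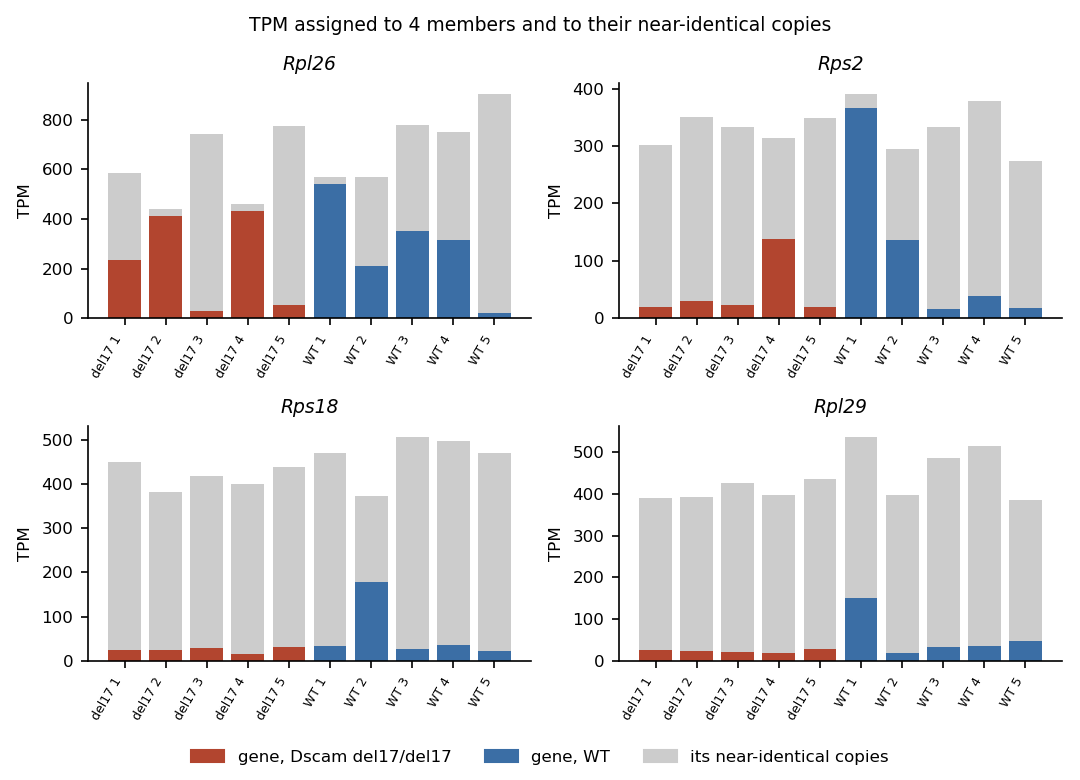
TPM (y axis, from 0) assigned in each library to 4 members (coloured, *Dscam* del17/del17 left and WT right) and to their near-identical copies (grey, stacked on top). In *Rps2* the coloured part runs from 16.8 to 367 TPM between libraries, while the whole bar runs from 274 to 390.3 TPM.

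Adding the copies left the lean of the members in place. The median log2 fold change was -0.09, with 55 of 77 below 0, beside 43.8% of all genes. The sum of members and copies was 24308, 25301, 25584, 27008 and 28569.5 TPM in *Dscam* del17/del17 libraries, against 28782, 25173, 31163, 30946 and 28273 TPM in WT libraries. The ratio of the means was -0.14 on the log2 scale.

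The log2 fold change of a member tended to be lower where the GC content of its transcripts was higher. Across the 77 members the correlation between GC content and log2 fold change was -0.46, and across 13462 nuclear protein-coding genes it was -0.40, a description across genes that share the same 10 libraries. Of the 25 members with the highest GC content (54.6% to 60.8%), 24 lay below 0 with a median log2 fold change of -0.21. Of the 26 members with the lowest (41.3% to 49.7%), 12 lay below 0 with a median of 0.01. The 26 between them had 18 below 0 and a median of -0.09. Without WT library 5, 23 of the 26 members with the lowest GC content lay below 0 and the correlation across members was -0.27. All genes shifted too, with 56.0% below 0, against 44.0% with all libraries. With the mitochondrial covariate (the mean log2 level of the mitochondrially encoded mRNAs), 22 of the 26 and 67.9% of all genes lay below 0. The correlation across members was then -0.16.

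The libraries themselves differed along the same axis. The members of high GC content summed to 8752, 8859, 8655.5, 9572 and 9961 TPM in *Dscam* del17/del17 libraries, against 10207, 8904, 11945, 11511.5 and 11494.5 TPM in WT libraries. Those of low GC content summed to 4734, 5119.6, 5119.6, 5486 and 5435 TPM in *Dscam* del17/del17 libraries, against 5935, 5094, 5759, 5723 and 4309 TPM in WT libraries. WT libraries 3 to 5 were high for the GC-rich members, and WT library 5 was lowest for the GC-poor ones. *Rpl36*, the member with the highest GC content (60.8%), was at 429, 502, 502, 502 and 643 TPM in *Dscam* del17/del17 libraries, against 487, 450.5, 700.4, 594 and 853 TPM in WT libraries. *Rps29*, of intermediate GC content (53.1%), was at 461, 534, 479, 579 and 716 TPM in *Dscam* del17/del17 libraries, against 568, 454, 806, 681 and 999 TPM in WT libraries.

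The deviation of a gene in a library from its own mean level was also set against GC content over all nuclear protein-coding genes tested. That correlation was -0.21, -0.13, -0.21, -0.27 and 0.03 in *Dscam* del17/del17 libraries 1 to 5, and -0.32, -0.32, 0.37, 0.18 and 0.47 in WT libraries 1 to 5. WT libraries 3, 4 and 5 thus differed in this respect from WT libraries 1 and 2, within one genotype. When the trend of each library with GC content was removed, the members' median log2 fold change was -0.13, against 0.01 for all genes. Then 61 of 77 members lay below 0, beside 48.5% of all genes. These were 21 of the GC-poor, 20 of the intermediate and 20 of the GC-rich members. *Rpl18* had 56.4% GC.

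**Figure D5:**
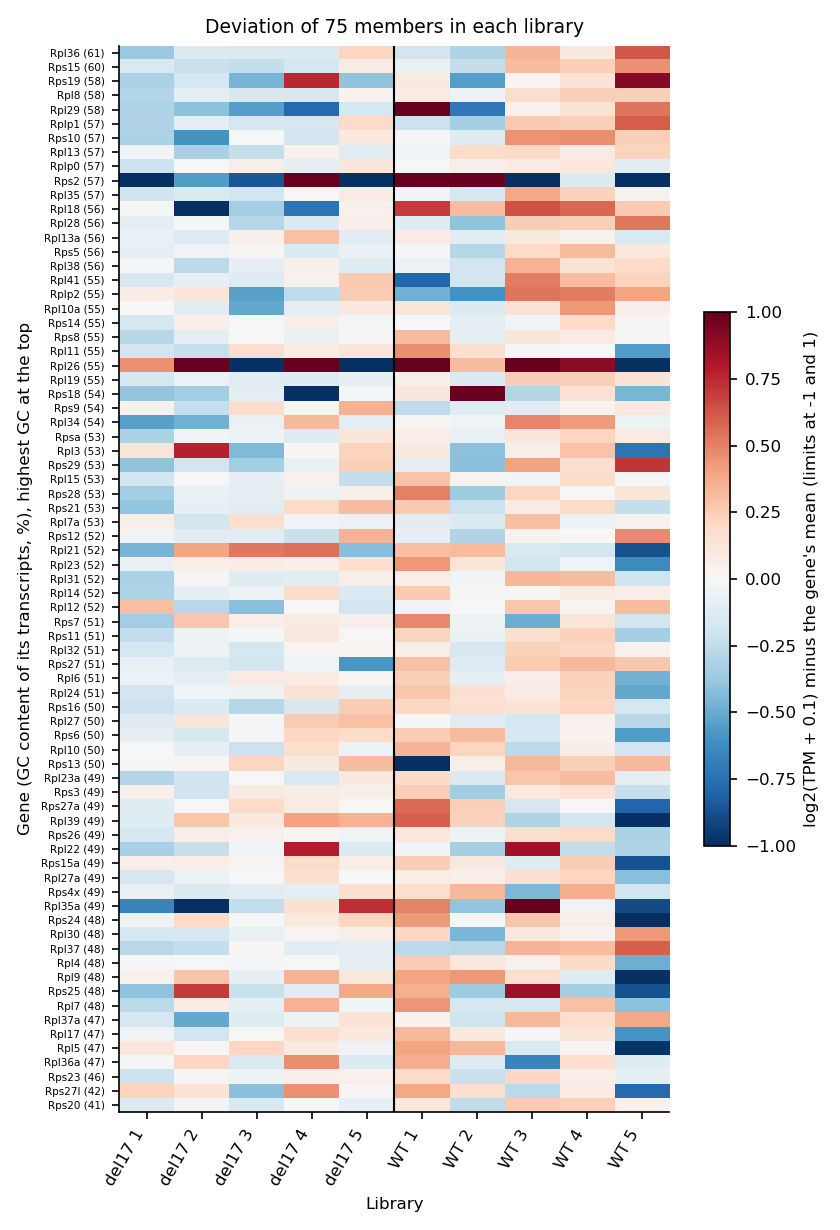
Deviation of log2(TPM + 0.1) from the gene's mean for 75 of the 77 members tested (rows, highest GC content at the top, GC percent in brackets) in each library (columns, *Dscam* del17/del17 left of the line and WT right); colours end at -1 and 1. WT libraries 3 to 5 are red at the top of the map, where 24 of the 25 members with the highest GC content had a log2 fold change below 0.

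Ribosomal proteins with other names were read separately. *Fau*, made as a fusion with a ubiquitin-like protein, was at 608, 601, 549.8, 596 and 677 TPM in *Dscam* del17/del17 libraries, against 657, 587, 781, 732 and 807 TPM in WT libraries (log2 fold change -0.23, limma adjusted p = 0.779). Its unadjusted p was under 0.05, and its groups overlapped. *Rps3a1* averaged 323 ± 19.9 TPM in *Dscam* del17/del17 and 318 ± 40.7 TPM in WT, and *Rack1*, a scaffold on the small subunit, 176 ± 13.1 TPM in *Dscam* del17/del17 and 193 ± 43.6 TPM in WT. Of the 7 genes on this list, 3 lay below 0.

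Other TOP mRNAs were counted in the same way. Of 19 elongation factors and other mRNAs of this class, 9 lay below 0, with a median of 0.01. *Eef1a1*, which brings the loaded tRNA to the ribosome, was at 1282 ± 52.1 TPM in *Dscam* del17/del17 and 1257 ± 263 TPM in WT. *Eef1a2*, the neuronal form, was at 1165, 1102, 1129, 1091 and 1209 TPM in *Dscam* del17/del17 libraries, against 1227, 1200.4, 1197, 1336 and 1425 TPM in WT libraries (log2 fold change -0.16, limma adjusted p = 0.779). *Eef2*, the translocation factor, was at 711, 683, 705, 655 and 756 TPM in *Dscam* del17/del17 libraries, against 764, 711, 794, 853 and 834 TPM in WT libraries (log2 fold change -0.17, limma adjusted p = 0.779). *Eif3l*, an initiation factor subunit, averaged 59.0 ± 5.67 TPM in *Dscam* del17/del17 and 46.5 ± 7.51 TPM in WT (log2 fold change 0.35, limma adjusted p = 0.779). Of 9 snoRNA host genes with TOP transcripts, 3 lay below 0. *Snhg8* had a log2 fold change of -0.28 and *Zfas1* of -0.26, and neither passed the threshold.

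The machinery that builds ribosomes was counted next. Of 32 ribosome biogenesis genes, 16 lay below 0 and 16 above, with a median of 0.01. *Bop1*, needed for maturation of the large subunit RNA, averaged 42.8 ± 4.68 TPM in *Dscam* del17/del17 and 52.0 ± 6.66 TPM in WT (log2 fold change -0.28, limma adjusted p = 0.779). *Mdn1*, an ATPase that strips assembly factors from the large subunit, averaged 10.9 ± 2.26 TPM in *Dscam* del17/del17 and 7.73 ± 1.96 TPM in WT (log2 fold change 0.50, limma adjusted p = 0.779).

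Of 25 genes of the mTORC1 pathway and other regulators, 10 lay below 0, with a median of 0.03. *Mtor* averaged 33.1 ± 2.77 TPM in *Dscam* del17/del17 and 32.1 ± 3.71 TPM in WT. *Larp1*, which binds the TOP tract, was at 47.5, 45.4, 44.2, 42.6 and 43.7 TPM in *Dscam* del17/del17 libraries, against 40.1, 42.5, 40.0, 40.9 and 34.3 TPM in WT libraries. Its groups did not overlap, the lowest *Dscam* del17/del17 value being 42.6 and the highest WT value 42.5 TPM, and the limma adjusted p was 0.779 (log2 fold change 0.18, exact permutation p = 0.0079, n = 5 each). Such a separation was found in 0.419% of all genes tested in this direction. *Larp4*, an RNA-binding protein reported to stabilise mRNAs, had a log2 fold change of 1.14 (standard error 0.46, limma adjusted p = 0.779), with WT libraries 3 to 5 at 1.71 to 2.68 TPM and the other 7 libraries at 6.94 to 10.2 TPM. *Eif4e*, the cap-binding protein, had 0.51 (limma adjusted p = 0.779), and *Eif4ebp1*, its repressor, was listed at 0 in 3 libraries.

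The mitochondrial counterparts were set beside the members. Of 78 mitochondrial ribosomal protein genes, 45 lay below 0 (57.7%) with a median of -0.02, and of 80 nuclear respiratory chain subunits tested, 45 lay below 0 (56.25%) with a median of -0.02. The members' own share was 70.1% with a median of -0.09. *Mrpl53* (-0.25) and *Mrpl4* (-0.25) had the smallest p of the mitochondrial ribosomal proteins, and *Ndufb10* (-0.23) and *Cox7a1* (-0.94) of the respiratory chain, each with a limma adjusted p of 0.779. The groups of *Ndufb10* did not overlap (exact permutation p = 0.0079), as in 0.798% of all genes tested in this direction. The 13 mitochondrially encoded mRNAs lay above 0 throughout, led by *mt-Nd6* (1.27) and *mt-Nd5* (0.48), none past the threshold.

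These mitochondrial mRNAs take a share of all TPM and vary between libraries. They summed to 41676, 37256, 39488, 44973 and 34717 TPM in *Dscam* del17/del17 libraries, against 44669.9, 38733, 23124, 32199 and 15206 TPM in WT libraries. WT library 5 was lowest and WT library 3 next, both among the libraries rich in GC-rich members. With every library scaled to the same sum over nuclear protein-coding genes, 52 of the 77 members and 41.2% of all genes lay below 0. The ratio of the summed TPM was then -0.13 on the log2 scale. The mitochondrial covariate used in limma was the mean log2(TPM + 0.1) of these mRNAs, not their sum. With it the members' median was -0.15 beside -0.11 for all genes, with 62 of 77 members and 67.9% of all genes below 0.

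Markers of cell types were read beside these values. The tissue label was checked against granule cell markers (*Gabra6*, *Neurod1*, *Slc17a7* and others), which summed to 2752 to 3084 TPM in *Dscam* del17/del17 and 2826 to 3568 TPM in WT, and against Purkinje cell markers, which summed to 4481 to 5520 TPM in *Dscam* del17/del17 and 4508 to 5251 TPM in WT. Of 9 granule cell markers, 8 lay below 0 with a median of -0.21, and 3 were lower at an unadjusted p under 0.05. Over all genes, 44.0% lay below 0, and 3.26% were lower and 2.29% higher at that p. Of 8 Purkinje cell markers, 1 lay below 0. All 4 blood markers were above 0 with an unadjusted p under 0.05, their sum being 1285 to 2231 TPM in *Dscam* del17/del17 and 816 to 1417 TPM in WT. All 5 interneuron and all 6 myelinating oligodendrocyte markers lay above 0, with medians of 0.21 and 0.22, and 2 of each were higher at an unadjusted p under 0.05. Markers of Bergmann glia and astrocytes, oligodendrocyte precursors, microglia and endothelium had medians of -0.00083, 0.21, 0.09 and 0.06. At an unadjusted p under 0.05, 1 marker of Bergmann glia and astrocytes was lower and 1 of oligodendrocyte precursors higher. Of 7 brainstem markers, 3 were tested. All 3 lay above 0, with a median of 1.07 (0.54 to 2.19) and 1 at an unadjusted p under 0.05, the largest median of these lists, and the 7 summed to 6.64 to 14.4 TPM in *Dscam* del17/del17 and 2.93 to 10.8 TPM in WT. None of the marker genes passed the adjusted threshold, and the part of these markers in the lean of the ribosomal protein genes was not tested.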

How the data were processed

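Total RNA of cerebellum was made into strand-specific libraries with the NEBNext Ultra Directional kit and sequenced on the NovaSeq platform. The authors trimmed the reads with Trimmomatic, aligned them to GRCm38 with HISAT2 and measured expression as TPM with StringTie, 1 value for each Ensembl gene. The deposited values are these TPM, 1 table for each of the 10 mice, with replicate numbers from the labels. The annotation release and strand setting of StringTie are not given in the sources used here. The read counts and DESeq2 results of the methods were not used here.

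Symbols, gene types and positions came from GENCODE M21, which lacked 105 of the 53447 identifiers. Log2(TPM + 0.1) was fitted with limma (version 3.58.1, under R version 4.3.3), with a variance trend and no covariates. Genes had to reach 0.5 TPM in 5 or more libraries, and Benjamini-Hochberg adjustment ran over the 17168 genes tested, with a threshold of 0.05. Single values were compared with exact two-sided permutation tests. The added 0.1 TPM draws fold changes of low genes toward 0.

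Copies were found with blastn (version 2.17.0) among GENCODE M21 transcripts, with at least 150 aligned bases. GC content was the mean over a gene's coding transcripts. The members and lists were chosen with earlier results of these data known. Members named in the text are the 10 with the smallest limma p, the 8 with the highest mean TPM, those left out by the filter, those whose groups do not overlap or that pass the threshold, and 20 chosen by role (*Rps4l* among them is annotated as a pseudogene and was not measured as a member). Of other genes, *Dscam*, 10 genes chosen by role and the 2 with the smallest p in each list are named. Where a gene is named outside this rule, it was chosen after its values were seen: this holds for *Rpl26*, *Rps2*, *Rps18*, *Rpl21*, *Rpl27*, *Rpl14*, *Rps13*, *Rps25*, *Rpl9* and *Rpl35a*. Some genes that this rule takes are not reported here and are left out of the figures by gene, while counts, medians and sums include them. Alternatives were other scalings, other added values and filters, covariates, the replicate number as a block, and each library left out. Summing copies and removing the GC trend were chosen after seeing the data.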

Additional observations from a re-analysis of the deposited data

Results flagged for a closer look

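In 70 groups of 5 libraries (the named members tested, *Dscam* and 4 sums, in each genotype), 5 held a library far from the others of its genotype, where chance alone gives about 1 in 20, that is 3.5. *Rpl29* was at 151 TPM in WT library 1, with the next WT library at 46.8 TPM. *Rps19* was at 160.1 TPM in *Dscam* del17/del17 library 4, with the next at 84.1 TPM. *Rps27* was at 236 TPM in WT library 2, with the next at 308 TPM. *Rps15* was at 1108 TPM in *Dscam* del17/del17 library 5, with the next at 941 TPM. *Rps4x* was at 229 TPM in *Dscam* del17/del17 library 5, with the next at 193 TPM.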

How the results depend on the processing

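Fits of single genes, and the medians and counts over them, were recomputed under 25 alternatives (24 for *Eif4ebp1*). Of the 25, 10 left out 1 library. The members' median log2 fold change stayed below 0 in all 25, from -0.15 to -0.06 without 1 library and from -0.19 to -0.06 otherwise. Between 49 and 67 members lay below 0 without 1 library (67 without WT replicate 5, where 56.0% of all genes did). Otherwise between 48 and 64 did, with 48 under quantile normalization (50.7% of all genes) and 64 with limma's array weights (54.6% of all genes). The count past the threshold was 0 throughout, also with the replicate block. The ratio of the summed TPM was recomputed only without 1 library, with equal sums and with the copies added. It ran from -0.20 to -0.13 without 1 library and from -0.18 to -0.13 otherwise. Over all genes, limma called 4 without the variance trend and 1 without *Dscam* del17/del17 replicate 4, none a member, against 0 in the main comparison. With quantile normalization the members' median was -0.06 and that of all genes -0.01, and with the mitochondrial covariate -0.15 and -0.11.

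Same-numbered libraries correlated at 0.01 to 0.10 and not every library correlated best with its own number, so the numbers were not taken as pairs. The block gave 9 members lower at an unadjusted p under 0.05, beside 2.96% of all genes, against 6 members and 3.26% without it. That count was 14 with array weights, beside 4.99% of all genes, and 14 with the mitochondrial covariate, beside 5.04%. It was 5 to 8 in the other alternatives with all libraries, beside 2.50% to 3.68% of all genes.

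Of 54 genes chosen by the naming rule, 34 kept one sign and none passed the threshold. The other 20 took the other sign somewhere, and the cause was not tested. Those values were, with the mitochondrial covariate, *Rpl41* 0.24, *Rplp1* 0.0604, *Rps29* 0.0103, *Rpl36* 0.0561, *Rps6* -0.21, *Rps27a* -0.30, *Rps27l* -0.18, *Rpl5* -0.24, *Rpl39* -0.0989, *Rplp2* 0.19, *Rps3a1* -0.0777, *Rack1* 0.0696 and *Eef1a1* -0.16, and with the GC trend removed, *Rpl41* 0.0454, *Rps6* -0.0241, *Rps14* 0.0262, *Rps27a* -0.0468, *Rps27l* -0.18, *Rpl5* -0.0294, *Rpl11* 0.0361, *Rplp0* 0.0441, *Rps3a1* -0.11, *Eef1a1* -0.0825 and *mt-Nd5* -0.0224. With array weights they were *Rps6* -0.0641, *Rps27a* -0.0720, *Rps27l* -0.00980, *Rpl5* -0.00845, *Rps3a1* -0.0448, *Eef1a1* -0.0614, *Mtor* -0.0112 and *Eif4ebp1* -0.39, and with equal medians *Rps6* -0.0493, *Rps27a* -0.0373, *Rps3a1* -0.0696, *Eef1a1* -0.0448 and *Mtor* -0.0512. They were *Rpl11* 0.00158 with equal coding sums, *Rps14* 0.00251 and *Rpl11* 0.0277 with quantile normalization and *Eif4ebp1* -0.28 with 0.01 TPM added. Without 1 library, the log2 fold change ran for *Rpl41* from -0.23 to 0.0981, *Rps6* from -0.0843 to 0.13, *Rps14* from -0.0616 to 0.00883, *Rps27a* from -0.13 to 0.21, *Rps27l* from -0.00787 to 0.29, *Rpl5* from -0.0706 to 0.27, *Rpl10* from -0.14 to 0.00621, *Rpl11* from -0.16 to 0.0913, *Rps3a1* from -0.0466 to 0.0795, *Eef1a1* from -0.0538 to 0.13 and *Eif4ebp1* from -0.45 to 0.79.

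TPM keeps no depth, so no counting error can be given. Sex and litter are not given for single mice in the labels, so they could not be fitted. Members that share sequence with copies are uncertain where the copies hold a large part of the TPM.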
